A study of Rattus norvegicus with 110 samples.

Results

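Dbp, Nr1d1, Nr1d2, Per3 and Arntl, 5 genes of the circadian clock, were followed by CCl4 dose, ancestry and organ in RNA-seq of F2 male rats. They were the 5 of 10 listed clock genes whose symbol stood beside an identifier in the gene lists published with the study, out of 31998 identifiers in the count tables. Per2, Tef, Ciart, Npas2 and Clock had no identifier in those lists and were not analysed here. Dbp, Nr1d1, Nr1d2 and Per3 are day-phase genes, whose liver transcripts peak during the day in nocturnal rodents, and Arntl is a night-phase gene. All 5 stood in a list that the study had selected on an effect of F0 treatment in liver, and Arntl also in a list selected on that effect in kidney, so the F0 effect is described below without a test in either organ.

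The libraries came from outbred adult Sprague Dawley males given olive oil (vehicle), 8% CCl4 (low dose) or 50% CCl4 (high dose), v/v in olive oil. CCl4 is a solvent that hepatocytes turn into a toxic radical and that is used to induce liver fibrosis. Gavage at 0.5 mL/kg was given 3 times per week, and tissue was taken at day 39, on the day after the last dose and after an overnight fast. Cohort A had no treated ancestor, cohort B a sire treated in F1, cohort C a paternal grandsire treated in F0, and cohort D both. Treated ancestors had received 50% CCl4 and recovered before mating, all others had received olive oil, and the females were never treated. The 12 liver groups held 7 males each, apart from 6 in cohort C on vehicle, for 83 liver libraries, and the same vehicle males gave 27 kidney libraries. Tissue was collected on 4 necropsy dates, and the time of day at which each male was sampled is not given in the sources used here. The males came from 34 litters, each collected on a single date, so that date and litter cannot be fully told apart.

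Library totals ran from 31638559 to 51343589 estimated counts in liver and from 21961746 to 35055218 in kidney. Levels are given as CPM, the counts scaled to a common library size, after TMM normalisation. In bulk tissue, fewer cells of a type and less RNA per cell cannot be told apart. Of the hepatocyte markers Cyp1a2, Tat and Glul, the summed level was 444 to 5225 CPM over all liver libraries. In kidney, Tat and Glul summed to 2120 to 2932 CPM. Glul had a median of 2421 CPM there against 330.5 CPM in vehicle liver, so this sum does not set liver apart from kidney. The kidney markers Lrp2 and Nphs1 summed to 5.83 to 35.6 CPM in liver and 2873 to 4945 CPM in kidney. Over all genes, cohort D high-dose male 5 and cohort C vehicle male 3 lay farthest from their groups in liver.

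On the clock genes, 4 males stood apart from their groups in liver, found from the values of these genes by Dixon's critical value for the gap to the nearest male of the group, and all collected on date 1: cohort A high-dose male 1, cohort B vehicle male 2, cohort C low-dose male 2 and cohort D low-dose male 1. In each of them Dbp, Nr1d1, Nr1d2 and Per3 were above every other male of the group and Arntl was below every other male. The same order held in cohort B low-dose male 6, of date 4, whose gaps did not pass Dixon's value, with 22.4 CPM of Dbp and 21.8 CPM of Arntl. Cohort D low-dose male 1 had 93.3 CPM of Dbp against 2.24 to 22.5 CPM in the other 6, and 6.79 CPM of Arntl against 22.9 to 52.1 CPM. Cohort B vehicle male 2 stood apart in the kidney as well, with 38.0 CPM of Dbp against 12.6 to 19.2 CPM and 32.2 CPM of Arntl against 45.2 to 51.2 CPM. Where leaving these 4 males out changed a call or moved a dose value well beyond its first size, the value without them is given beside it.

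The mammalian clock is a loop of transcription and translation. Arntl (also called Bmal1) pairs with Clock or Npas2 and activates genes through E-boxes, among them Per and Cry genes, whose proteins inhibit the pair, and Nr1d1 and Nr1d2, which encode the receptors REV-ERB alpha and beta. These receptors repress Arntl through ROR elements, and Dbp, an activator that binds D-boxes, carries the rhythm to output genes. In liver the loop times glucose, lipid and bile acid metabolism, and feeding is a strong timing signal.

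The elements by which Arntl and the REV-ERB receptors are known to act on each other are shown because the genes at both ends of that loop are measured here. The RefSeq promoter table (GRCr8; 300 bases around each start, 50 of them after it) held windows for all 5 genes, with 2 for Nr1d1, and both strands were searched for the E-box CACGTG, the E-box variant CACGTT, the D-box TTANGTAA and the ROR element core TAGGTNA. Capitals mark the matched letters, read on the strand of the gene, so that the E-box variant appears as its reverse complement.
Nr1d1 E-box, chr10:84229628-84229657, minus strand: tgtcagctcccaCACGTGtctggggatcct
Nr1d1 E-box variant, chr10:84231969-84231998, minus strand: cgcatagagctcAACGTGcccgctgctgga
Arntl ROR element core, upstream, chr1:176766265-176766294, plus strand: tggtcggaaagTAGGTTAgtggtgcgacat
Arntl ROR element core, downstream, chr1:176766301-176766330, plus strand: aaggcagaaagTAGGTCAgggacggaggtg
The 2 Arntl cores lay 52 and 16 bases before the start. Of 33469 promoter windows in the table, 6.42% held the E-box, 4.83% the variant, 2.24% the D-box and 8.7% the ROR element core. No other match was found in these windows, which says only that the letters are absent from them.

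The first comparison asked how the clock genes differed between doses over the 4 cohorts. At the low dose none of the 5 genes passed in edgeR, while DESeq2 called Dbp (0.58, DESeq2 adjusted p = 0.0866). At the high dose the 2 REV-ERB genes and Arntl were lower than with vehicle, at a fitted fold of 0.638 for Nr1d1, 0.704 for Nr1d2 and 0.789 for Arntl, while Dbp and Per3 did not pass. The calls thus included both day-phase genes and the night-phase gene, in the same direction. The ranges of the 3 doses overlapped for each of the 5 genes, and how many of all genes overlapped was not computed.

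Nr1d1 ran from 4.37 to 97.2 CPM with vehicle (median 23.6, n = 27), from 2.85 to 149 CPM at the low dose (median 32.7, n = 28) and from 3.12 to 60.9 CPM at the high dose (median 14.6, n = 28). The median was highest at the low dose and lowest at the high dose. The log2 fold change was -0.65 ± 0.29 (SE; edgeR adjusted p = 0.0419) at the high dose and 0.49 ± 0.29 (edgeR adjusted p = 0.233) at the low dose, and high against low differed by -1.14 ± 0.29 (edgeR adjusted p = 0.000485). Without the males of date 1 the high-dose value was -0.42 (edgeR adjusted p = 0.294) and the call was lost. Within dates, the high-dose median was below the vehicle median on dates 1 (17.4 against 32.1 CPM), 3 (6.53 against 14.5 CPM) and 4 (23.1 against 27.7 CPM), and above it on date 2 (11.4 against 10.9 CPM).

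Nr1d2, the paralog of Nr1d1, had a median of 42.5 CPM with vehicle (18.8 to 71.7), 43.7 CPM at the low dose (17.1 to 100.4) and 29.8 CPM at the high dose (15.3 to 53.1). Vehicle and low dose lay side by side and the high dose lay below both. The log2 fold change was -0.51 ± 0.14 (edgeR adjusted p = 0.000724) at the high dose, -0.51 ± 0.13 (edgeR adjusted p = 0.000783) for high against low, and 0.0027 ± 0.14 at the low dose, with a 95% interval of -0.26 to 0.27. On each of the 4 dates the high-dose median was below the vehicle median, at 34.4 against 50.3, 25.9 against 29.6, 31.6 against 38.1 and 28.65 against 43.5 CPM.

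Arntl, the activator that the REV-ERB receptors repress, had a median of 42.4 CPM with vehicle (26.5 to 58.0), 40.2 CPM at the low dose (6.79 to 52.5) and 34.5 CPM at the high dose (16.4 to 48.1). The lowest males were lower in both CCl4 groups than with vehicle. The log2 fold change was -0.34 ± 0.11 (edgeR adjusted p = 0.0039) at the high dose and -0.19 ± 0.11 (edgeR adjusted p = 0.224) at the low dose. Without date 2 the low-dose value was -0.37 and passed (edgeR adjusted p = 0.0293). Without the 4 males it was -0.12 ± 0.08 (edgeR adjusted p = 0.329). High against low did not pass at -0.16 ± 0.11, and passed at -0.20 (edgeR adjusted p = 0.033) without the 4 males. The high-dose median was below the vehicle median on each date, at 32.3 against 41.1, 32.2 against 40.8, 42.7 against 48.55 and 35.3 against 41.9 CPM.

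Dbp, the D-box activator, had a median of 3.57 CPM with vehicle (1.41 to 22.5), 3.39 CPM at the low dose (1.501 to 93.3) and 3.92 CPM at the high dose (2.10 to 17.4). The medians were close, and the highest males were those of the low dose. The log2 fold change was 0.60 ± 0.28 (edgeR adjusted p = 0.108) at the low dose and 0.04 ± 0.27 (edgeR adjusted p = 0.913) at the high dose. The low-dose value passed with DESeq2 (0.58, DESeq2 adjusted p = 0.0866) and without date 2 (0.82, edgeR adjusted p = 0.0548). Without the 4 males the low-dose value was 0.18 ± 0.22 (edgeR adjusted p = 0.630) and the high-dose value 0.07 ± 0.21. High against low passed at -0.56 ± 0.27 (edgeR adjusted p = 0.0667). That call was lost without the 4 males (-0.11, edgeR adjusted p = 0.697), without date 1 (-0.0022, edgeR adjusted p = 1.0), without date 4 (-0.46, edgeR adjusted p = 0.253) and with the necropsy date as a block (-0.40, edgeR adjusted p = 0.193). At values close to the first it also missed the threshold with the litter as a block (-0.53, edgeR adjusted p = 0.121), with no filter (-0.51, 0.119) and without cohort D high-dose male 5 and cohort C vehicle male 3 (-0.51, 0.108).

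Per3, an inhibitor of the period family, had a median of 3.80 CPM with vehicle (0.968 to 10.6), 4.01 CPM at the low dose (1.88 to 46.8) and 3.98 CPM at the high dose (1.84 to 20.2). The 3 medians were close, the lowest male was on vehicle, and the highest were CCl4 males, at up to 46.8 CPM against 10.6 CPM with vehicle. The log2 fold change was 0.53 ± 0.25 (edgeR adjusted p = 0.119) at the low dose and 0.36 ± 0.25 (edgeR adjusted p = 0.196) at the high dose. Without the 4 males they were 0.21 ± 0.19 and 0.23 ± 0.19 (edgeR adjusted p = 0.480 and 0.276). With the necropsy date as a block the high-dose value passed, at 0.46 (edgeR adjusted p = 0.0662).

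In counts, 0 of 5 genes passed at the low dose in edgeR, where 28.4% of the genes tested passed. At an unadjusted p under 0.05 there were 2 of the 5, beside 33.3% of all genes, and DESeq2 called 1. At the high dose 3 of 5 passed, all lower, beside 72.2% of all genes, and for high against low 3 of 5 passed, all lower, beside 64.8%. The median log2 fold change of the 5 genes was 0.49 at the low dose and -0.34 at the high dose, beside 0.0045 and 0.0054 over all genes tested. Without the 4 males the medians were 0.18 and -0.32, and 3 of 5 passed at the high dose.

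**Figure D1:**
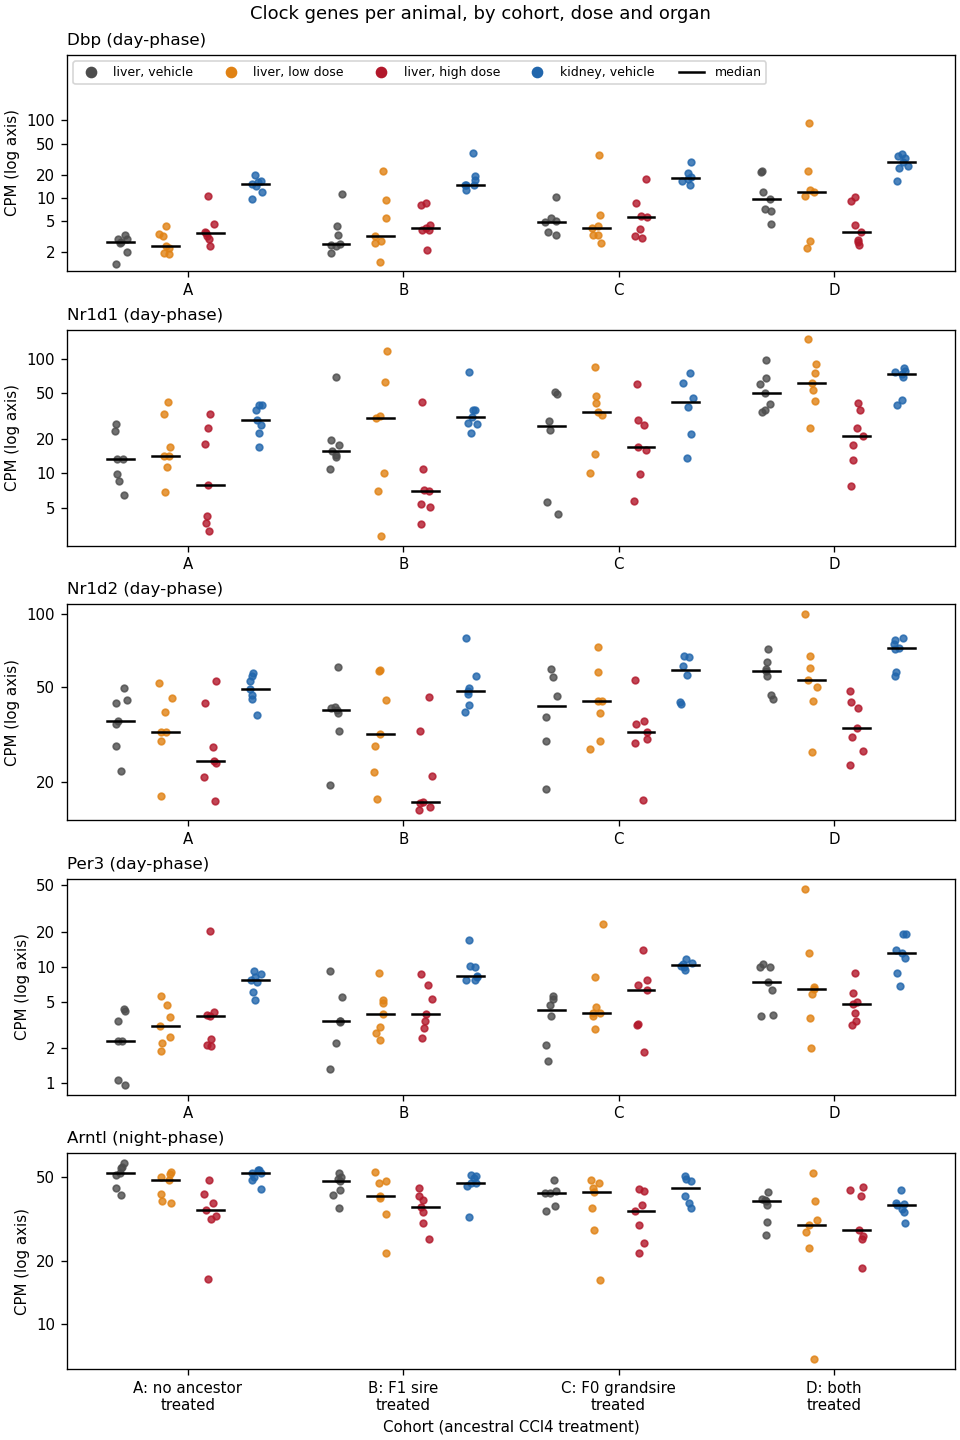
CPM of each gene (log axis) in every male, by cohort and coloured by liver dose or kidney, with a black line at the group median. The liver dose groups of each cohort overlap for every gene, and cohort D low-dose male 1 lies highest for Dbp (93.3 CPM) and lowest for Arntl (6.79 CPM).

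The high dose changed cell type markers too. The endothelial marker Kdr fell by 1.06 on the log2 scale and the hepatocyte enzyme Cyp1a2 by 1.26, while the macrophage marker Adgre1 rose by 0.39. The hepatocyte enzyme Tat did not pass, at -0.12 ± 0.19. The other 2 macrophage markers with an identifier did not pass, at 0.02 for Cd163 and -0.0026 for Cd5l, and the median over the 3 was 0.02. The hepatocyte sum had a median of 1469 CPM with vehicle (771 to 5225), 1313 CPM at the low dose (697 to 3850) and 1154 CPM at the high dose (444 to 2158). The macrophage sum of Adgre1, Cd163 and Cd5l had medians of 154, 174 and 189 CPM, and no marker of stellate cells, cholangiocytes or dividing cells had an identifier. Glul, a marker of hepatocytes around the central vein, fell by 1.07 at the low dose and by 0.33 at the high dose. Their part in the clock gene results was not tested.

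Dose was next compared within each cohort, as the ancestry of the males differed between cohorts. At the low dose 0 of 20 gene and cohort pairs passed (0 at an unadjusted p under 0.05, 0 by DESeq2), beside 6.28%, 6.44%, 10.3% and 7.4% of all genes in cohorts A to D. At the high dose 6 of 20 passed, beside 49.2%, 55%, 47.9% and 51.1% of all genes. The males of the compared groups overlapped in all 20 pairs at each dose, and the share of all genes with such overlap was not computed.

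Cohort D, with both ancestors treated, held 3 of the 6 pairs, all lower. Nr1d1 there ran from 34.4 to 97.2 CPM with vehicle (median 50.5) and from 7.70 to 41.4 CPM at the high dose (median 21.3), and all 7 high-dose males lay below the vehicle median. Its log2 fold change was -1.26 ± 0.58 (edgeR adjusted p = 0.0679). Nr1d2 in cohort D had medians of 57.9 CPM (44.6 to 71.7) and 33.7 CPM (23.7 to 47.9), also with all 7 males below the vehicle median, for a log2 fold change of -0.69 ± 0.27 (edgeR adjusted p = 0.0316). Dbp in cohort D had medians of 9.65 CPM (4.65 to 22.5) and 3.64 CPM (2.44 to 10.1), for a log2 fold change of -1.25 ± 0.54 (edgeR adjusted p = 0.0541). The Dbp call was lost without date 2 (-0.96, edgeR adjusted p = 0.184) or date 4 (-1.34, 0.123), and the Nr1d1 call without date 2 (-1.19, 0.116), 3 (-1.19, 0.133) or 4 (-1.15, 0.192). Without cohort D high-dose male 5 and cohort C vehicle male 3, both calls were lost, at -1.13 for Dbp and -1.10 for Nr1d1 (edgeR adjusted p = 0.113 and 0.134). These folds moved by less than their SE.

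In cohort A, with no treated ancestor, Arntl fell from a median of 52.0 CPM (40.9 to 58.0) to 34.7 CPM (16.4 to 48.1), for a log2 fold change of -0.56 ± 0.21 (edgeR adjusted p = 0.0279). All 7 high-dose males lay below the vehicle median, and without date 2 the value was -0.50 (edgeR adjusted p = 0.105). Per3 in cohort A rose from a median of 2.30 CPM (0.968 to 4.30) to 3.74 CPM (2.09 to 20.2), with a log2 fold change of 1.05 ± 0.49 (edgeR adjusted p = 0.0774). Without cohort A high-dose male 1, at 20.2 CPM, and the other 3 males it was 0.21 (edgeR adjusted p = 0.705), and without date 1 it was 0.38 (0.574) and without date 2 it was 1.01 (0.141). In cohort B, Nr1d2 fell from a median of 39.9 CPM (19.5 to 60.4) to 16.6 CPM (15.3 to 45.2), with a log2 fold change of -0.75 ± 0.27 (edgeR adjusted p = 0.0171). Without date 1 that value was -0.44 (edgeR adjusted p = 0.278).

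**Figure D2:**
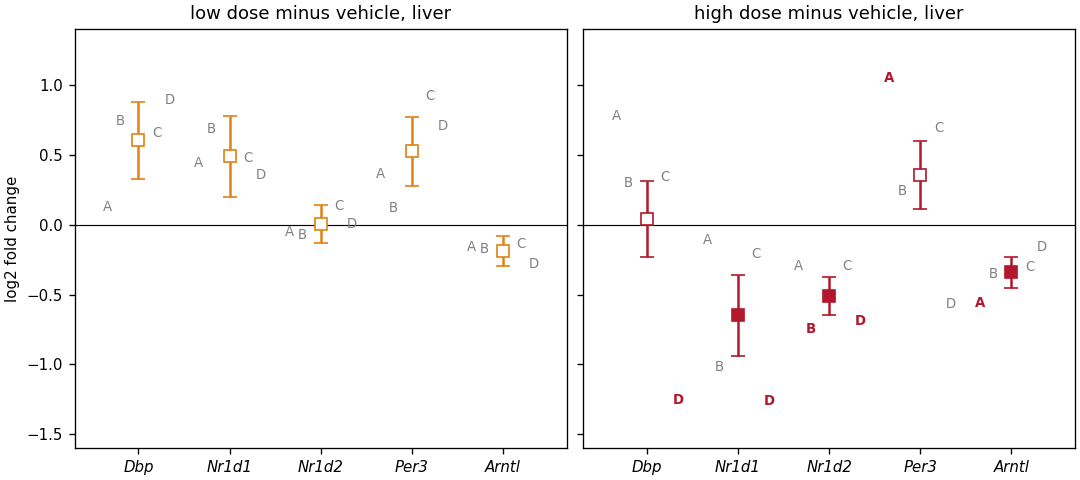
Log2 fold change against vehicle in liver, for the low dose (left) and the high dose (right); squares with bars are the mean over cohorts ± SE, filled where the adjusted p was under 0.1, and letters are the single cohorts, bold where called. At the high dose Nr1d1 (-0.65), Nr1d2 (-0.51) and Arntl (-0.34) are filled, and cohort D lies lowest for all day-phase genes but Nr1d2.

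Whether ancestry changed the dose effect was tested directly as an interaction. None of 20 tests over both doses and both ancestral treatments passed in edgeR (1 at an unadjusted p under 0.05, 0 by DESeq2). Over all genes, 0.716% passed for the low dose by F0 and 0% for the high dose by F0, the low dose by F1 and the high dose by F1, with 5.4%, 5.27% and 10.3% of genes in the latter 3 at an unadjusted p under 0.05 and 13, 6 and 123 called by DESeq2. For the high dose by F1 the differences were -1.04 ± 0.49 for Per3 (edgeR adjusted p = 0.449), -1.04 for Dbp, -0.98 for Nr1d1, -0.42 for Nr1d2 and 0.17 for Arntl. Without the 4 males they were -0.44 for Per3, -0.59 for Dbp, -0.49 for Nr1d1, -0.26 for Nr1d2 and 0.09 for Arntl. The different calls in cohorts A and D are thus not shown to differ between cohorts by these tests.

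Treatment of the F1 sires was compared in a model with F0, F1 and dose as separate terms. The treatment was given to sires, but brothers of a litter entered as separate males and litter was not a term. The SE and p values may therefore be too small, which also holds for the SE of the F0 values below. In liver 0 of 5 genes passed and 0% of 12254 genes did (1420 at an unadjusted p under 0.05, 11 by DESeq2), with 2 of the 5 at an unadjusted p under 0.05. The largest of the 5 values was Dbp at 0.73 ± 0.24 (edgeR adjusted p = 0.290), followed by Nr1d1 at 0.54 ± 0.24, Per3 at 0.37 ± 0.21 and Nr1d2 at 0.11 ± 0.11, with Arntl at -0.14 ± 0.09. In kidney 0 of 5 and 0% of 12885 genes passed (857 at an unadjusted p under 0.05, 0 by DESeq2), and 4 of the 5 had an unadjusted p under 0.05. The kidney values were 0.44 ± 0.15 for Dbp, 0.46 ± 0.22 for Nr1d1, 0.37 ± 0.14 for Per3, 0.19 ± 0.10 for Nr1d2 and -0.19 ± 0.07 for Arntl. The 4 day-phase values lay above 0 and the Arntl value below 0 in both organs, and the kidneys came from males whose livers are in the other fit.

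The F0 values follow as a description, since that effect decided which genes have a symbol here. In vehicle liver Dbp had a median of 2.67 CPM (1.41 to 11.2, n = 14) in males without and 6.68 CPM (3.29 to 22.5, n = 13) in males with a treated F0 grandsire. Nr1d1 had medians of 14.1 CPM (6.51 to 70.3) and 40.4 CPM (4.37 to 97.2), Nr1d2 of 39.4 and 54.8 CPM, and Per3 of 3.36 and 5.27 CPM. Arntl went the other way, with 49.2 CPM (35.5 to 58.0) and 38.8 CPM (26.5 to 48.4). Over all doses the log2 values were 1.15 ± 0.24 for Dbp, 0.97 ± 0.23 for Nr1d1, 0.41 ± 0.11 for Nr1d2, 0.72 ± 0.21 for Per3 and -0.26 ± 0.09 for Arntl.

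In the kidney of the same vehicle males the corresponding log2 values were 0.50 ± 0.15, 0.69 ± 0.22, 0.33 ± 0.10, 0.45 ± 0.14 and -0.28 ± 0.07. Nr1d1 had kidney medians of 30.3 CPM (16.9 to 77.5) and 62.3 CPM (13.7 to 83.1), and Arntl of 49.5 CPM (32.2 to 54.0) and 37.6 CPM (30.3 to 50.7). Leaving out date 1 lowered the liver value of Dbp to 0.81 and of Per3 to 0.48. Leaving out date 2 lowered Nr1d1 to 0.73 and Nr1d2 to 0.27, and leaving out date 4 raised Nr1d2 to 0.54 and Per3 to 0.94.

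The pooled liver values covered cohort pairs that lay apart, each of 6 or 7 males a group. For Dbp, cohort D minus cohort B, both with treated F1 sires, was 1.61 ± 0.45 (SE of the difference in mean log2 CPM) with vehicle, 1.28 ± 0.84 at the low dose and -0.07 ± 0.41 at the high dose. Cohort C minus cohort A, both without, was 1.01 ± 0.28, 0.97 ± 0.51 and 0.54 ± 0.42 for Dbp at the same doses. Without the 4 males, D minus B was 1.89 ± 0.36, 0.77 ± 0.73 and -0.07 ± 0.41, and C minus A was 1.01 ± 0.28, 0.51 ± 0.23 and 0.78 ± 0.36. The order of the doses in C minus A thus turned on these males, and the test of dose by F0 did not pass for Dbp. For Nr1d2 with vehicle, C minus A was 0.10 ± 0.29 and D minus B was 0.59 ± 0.21, and for Nr1d1 they were 0.52 ± 0.69 and 1.46 ± 0.39. Arntl with vehicle differed little between the pairs, at -0.32 ± 0.10 and -0.34 ± 0.12. At the low dose it was -0.36 ± 0.23 and -0.59 ± 0.39, and at the high dose -0.04 ± 0.24 and -0.18 ± 0.21. Without the 4 males Arntl was -0.17 ± 0.145 and -0.27 ± 0.23 at the low dose. At the high dose it was then -0.21 ± 0.17 and -0.18 ± 0.21, so the small C minus A value there turned on these males. Differences between these cohort pairs were not tested.

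**Figure D3:**
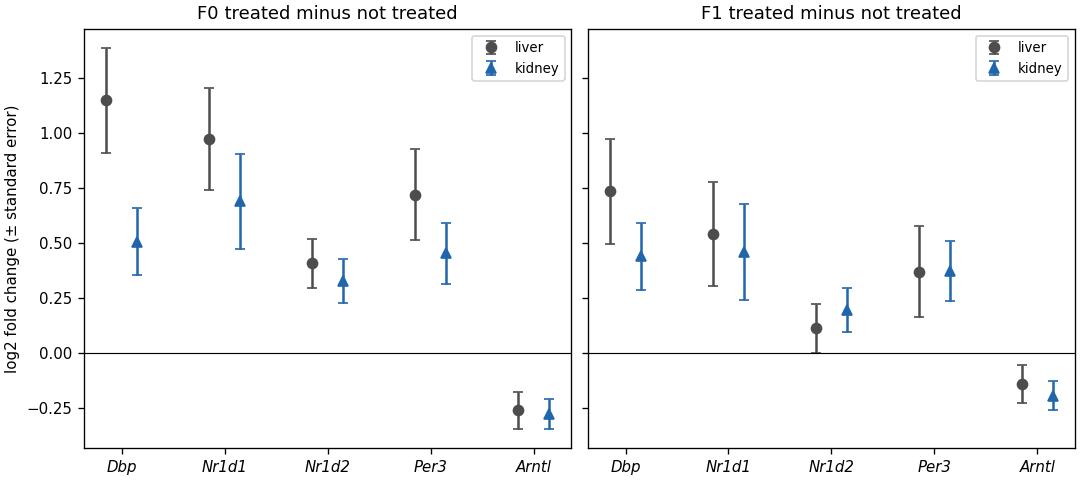
Log2 fold change with treated against untreated F0 grandsires (left) and F1 sires (right), as estimate ± SE in liver (circles, all doses) and kidney (triangles, vehicle males). Day-phase genes lie above 0 and Arntl below 0 in each panel, from -0.28 for Arntl in kidney to 1.15 for Dbp in liver, both for F0.

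Liver and kidney of the 27 vehicle males were then compared within animals. Dbp ran from 1.41 to 22.5 CPM in liver (median 3.57) and from 9.63 to 38.0 CPM in kidney (median 17.02), and the liver was lower by a log2 fold change of -1.35 ± 0.13 (edgeR adjusted p = 3.245e-11). Per3 was lower in liver as well, at -0.65 ± 0.13 (edgeR adjusted p = 3.118e-05), with a kidney median of 9.38 CPM (5.13 to 19.2). Nr1d2 was higher in liver by 0.28 ± 0.06 (edgeR adjusted p = 7.95e-05) and Arntl by 0.68 ± 0.04 (edgeR adjusted p = 9.362e-18). The direction of these last values depends on the scaling: they come from counts of both organs scaled together, whereas on the CPM levels, scaled within each organ, the liver medians lay below those of kidney, at 42.6 against 55.4 CPM for Nr1d2 and 42.4 against 46.7 CPM for Arntl. For Dbp and Per3 the liver was lower on both scales.

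Nr1d1 did not pass, at -0.10 ± 0.11 (edgeR adjusted p = 0.41), with a 95% interval of -0.31 to 0.12. In all 4 of 5 genes passed, beside 85.6% of 19292 genes. Organ cannot be told apart from library preparation, since the organs were prepared as separate series. Per kilobase of average transcript length, the liver medians were 17.9 CPM for Arntl, 13.5 for Nr1d2, 12.3 for Nr1d1, 4.49 for Dbp and 1.79 for Per3. In kidney they were 11.7 for Nr1d1, 11.6 for Arntl, 10.5 for Dbp, 10.3 for Nr1d2 and 2.48 for Per3. These levels were scaled over both organs together. The ranges of neighbours in each order overlapped, except in kidney for Per3, which lay below every library of Nr1d2 (1.33 to 6.99 against 7.04 to 14.8). The average length of Per3 varied from 1097 to 3533 bases between liver libraries, so its level per kilobase is less certain.

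Within groups, the males differed more in these genes than in most. The within-group SD on the log2 scale over all liver libraries was 1.12 for Nr1d1, larger than that of 98.3% of 12254 genes, 0.97 for Dbp (97.4%), 0.88 for Per3 (96.5%), 0.52 for Nr1d2 (85.5%) and 0.44 for Arntl (77%). Arntl had an SD of 0.20 with vehicle, above only 21% of genes, 0.59 at the low dose and 0.42 at the high dose. Without the 4 males, the low-dose SD of Arntl was 0.35 and the high-dose SD was 0.36. No test of these spreads was made.

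For the clock genes, the deviations of a male from its group were shared between its organs. The share of all genes with such a correlation was not computed, so the sharing is not shown to be particular to clock genes. Both organs of a male also have the same necropsy date and litter. Over the 27 vehicle males, the liver and kidney values of Nr1d1, each centred on the group, had a Pearson r of 0.86 and a Spearman rho of 0.81 (permutation p = 3e-05 and 5e-05, adjusted p = 9e-05 and 0.000173 over 45 correlations, 100000 resamples). For Nr1d2 r was 0.69 and rho 0.71 (permutation p = 0.00071 and 0.00023, adjusted p = 0.00141 and 0.000575), and for Arntl r was 0.64 and rho 0.60 (permutation p = 0.00075 and 0.00134, adjusted p = 0.00141 and 0.00287). For Dbp r was 0.62 and rho 0.46 (permutation p = 0.00433 and 0.0209, adjusted p = 0.00573 and 0.0269), and for Per3 r was 0.52 and rho 0.58 (permutation p = 0.00592 and 0.00252, adjusted p = 0.0074 and 0.00454).

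Without the 2 males farthest from the liver median, r was 0.77 for Nr1d1, 0.70 for Nr1d2, 0.46 for Arntl and 0.48 for Per3, each still passing. For Dbp it was 0.36 (permutation adjusted p = 0.138), so that call was lost without those males. Without cohort B vehicle male 2 alone, r for Dbp was 0.43 and passed (permutation adjusted p = 0.0744). With values centred on group and necropsy date, r was 0.84 for Nr1d1, 0.64 for Nr1d2, 0.69 for Arntl, 0.61 for Dbp and 0.71 for Per3. All 5 passed, again without a share over all genes to set beside them.

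**Figure D4:**
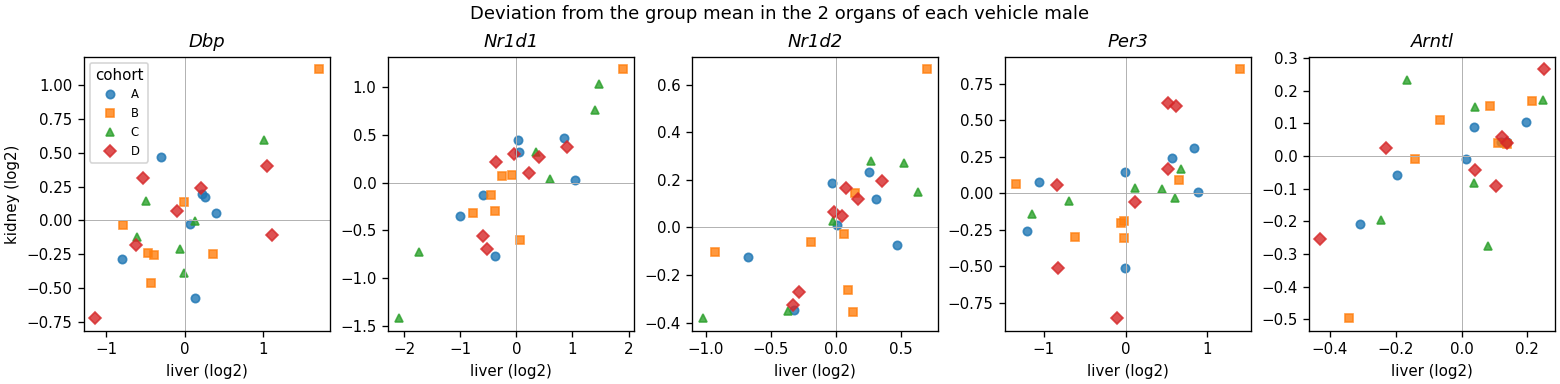
Deviation from the group mean (log2 CPM) in liver (x axis) and kidney (y axis) of each of the 27 vehicle males, marked by cohort. The points run from lower left to upper right for each gene, most tightly for Nr1d1 (r = 0.86), and cohort B vehicle male 2 lies at the upper right for the day-phase genes.

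The genes also deviated together within an organ, and every r of a day-phase gene with Arntl was negative, though not all passed. In vehicle liver, 8 of 10 gene pairs passed on Pearson's r. The share over other gene pairs was not computed, here or for the counts of pairs below. Nr1d1 and Nr1d2 had r = 0.82 and rho = 0.79 (permutation p = 2e-05 and 3e-05, adjusted p = 6.9e-05 and 0.000123), and Dbp and Arntl had r = -0.66 and rho = -0.51 (permutation p = 0.00061 and 0.0127, adjusted p = 0.00137 and 0.0173). Nr1d2 and Arntl (r = -0.32, permutation adjusted p = 0.115) and Per3 and Arntl (r = -0.32, permutation adjusted p = 0.122) did not pass on r. Both passed on rho (-0.41 and -0.37, permutation adjusted p = 0.0466 and 0.0762). Dbp with Nr1d1 and Dbp with Nr1d2 passed on r (0.36 for both, permutation adjusted p = 0.0709 and 0.0791). They did not pass on rho (0.21 and 0.26, permutation adjusted p = 0.291 and 0.197). Without the 2 farthest males r was 0.72 for Nr1d1 and Nr1d2 and -0.56 for Dbp and Arntl, while Dbp with Nr1d1, Dbp with Nr1d2 and Nr1d1 with Arntl (r = 0.16, 0.19 and -0.24) no longer passed. Without cohort B vehicle male 2, 5 of 10 pairs passed on Pearson's r. Of the pairs with Arntl only that with Dbp did (r = -0.59), while Nr1d1, Nr1d2 and Per3 had -0.31, -0.21 and -0.20. With values centred on group and necropsy date, r was 0.73 for Nr1d1 and Nr1d2 and -0.77 for Dbp and Arntl, Dbp with Nr1d1 (0.30) and Dbp with Nr1d2 (0.29) did not pass, and the other 8 pairs did.

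At the low dose all 10 pairs passed. Dbp and Arntl had r = -0.91 and rho = -0.83 over 28 males (permutation p = 1e-05 for both, the smallest the resamples can give, adjusted p = 4.1e-05 and 6.4e-05), and r was -0.86 without the 2 farthest males. Dbp and Per3 had r = 0.90 and rho = 0.79 (permutation p = 1e-05 and 5e-05, adjusted p = 4.1e-05 and 0.000173), and r was 0.82 without the 2 farthest. At the high dose Nr1d1 and Arntl (r = -0.31, permutation adjusted p = 0.13) and Nr1d2 and Arntl (r = -0.26, permutation adjusted p = 0.198) did not pass. Dbp and Arntl there had r = -0.45 and rho = -0.44 (permutation p = 0.0264 and 0.0325, adjusted p = 0.0312 and 0.0385), which was -0.24 without the 2 farthest males (permutation adjusted p = 0.355) and rested on them. In kidney all 10 pairs passed on Pearson's r, which was largest in size for Nr1d1 and Nr1d2 (0.88) and smallest for Dbp and Per3 (0.38). Without the 2 farthest males the latter was 0.015, and none of the 4 kidney pairs with Dbp passed. Differences in r between doses or organs were not tested.

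**Figure D5:**
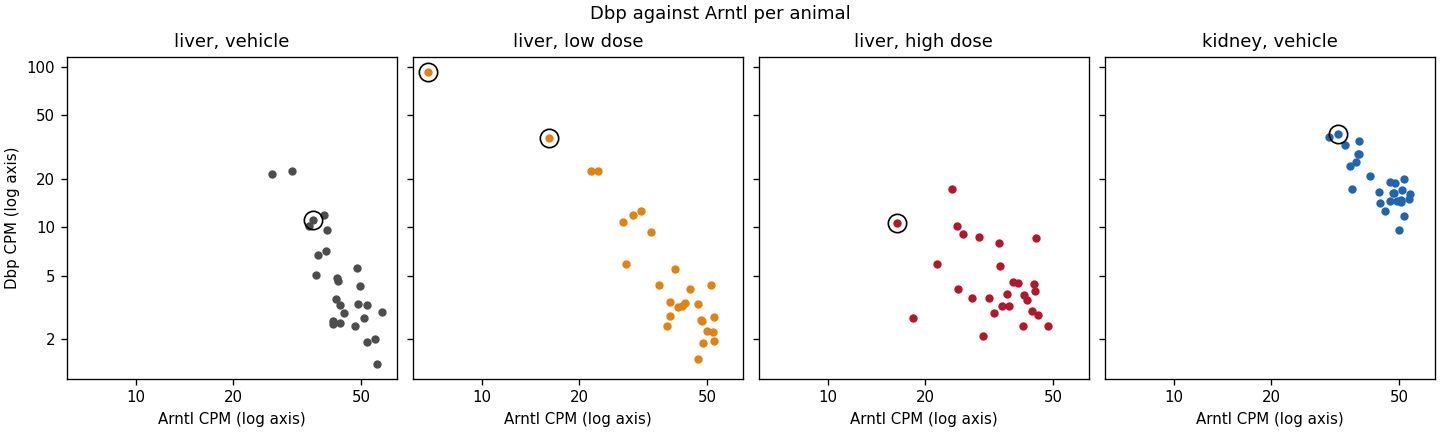
Dbp against Arntl (CPM, both axes log) in each male, for vehicle, low-dose and high-dose liver and vehicle kidney, with the 4 males that stood apart ringed. The points fall from upper left to lower right, most tightly at the low dose (r = -0.91), where a ringed male marks the end at 93.3 CPM of Dbp and 6.79 CPM of Arntl.

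The 4 necropsy dates were compared within groups, with 12 to 24 liver libraries each. In liver 3 of 5 genes passed, beside 7.16% of all genes: Nr1d1 (edgeR adjusted p = 0.0214), Nr1d2 (0.0300) and Per3 (0.0374), while Dbp (0.169) and Arntl (0.737) did not. From the group mean, Nr1d1 lay at 0.39 ± 0.96 on the log2 scale on date 1 (SD, n = 24), -0.55 ± 0.99 on date 2 (n = 23), -0.61 ± 0.78 on date 3 (n = 12) and 0.44 ± 0.94 on date 4 (n = 24). Nr1d2 and Per3 were likewise higher on dates 1 and 4 than on dates 2 and 3, at 0.21 and 0.38 on date 1, -0.31 and -0.49 on date 2, -0.14 and -0.18 on date 3, and 0.16 and 0.18 on date 4. The call for Per3 was lost without the 4 males (edgeR adjusted p = 0.1399) and with transcript length offsets (0.144). In kidney 0 of 5 genes passed, beside 0% of 18374 genes (2 of 5 genes and 973 of all at an unadjusted p under 0.05, 0 and 25 called by DESeq2), with Nr1d1 at 0.46 ± 0.36 on date 1 (n = 8) and -0.27 ± 0.39 on date 2 (n = 7).

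Other genes of the clock were taken from a list of 16, of which 6 had an identifier. At the low dose 0 of 6 passed in edgeR (0 at an unadjusted p under 0.05, 0 by DESeq2), beside 28.4% of all genes, and at the high dose 4 of 6 did, beside 72.2%, so that the list stood near or below the share over all genes. Its median log2 fold change at the high dose was -0.33, beside 0.0054 over all genes. Cry1 and Cry2, which encode inhibitors of the Arntl complex, fell by 0.41 each, and Arntl2, a paralog of Arntl, fell by 1.01 on the log2 scale. Prkaa1, a subunit of the energy sensor AMPK, rose by 0.39 ± 0.07. Cry1 had a median of 15.5 CPM with vehicle (8.31 to 25.8), 12.3 CPM at the low dose (5.51 to 23.9) and 10.9 CPM at the high dose (5.07 to 22.1), so its groups overlapped.

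Per1, another inhibitor of the period family, had a log2 value of -0.25 ± 0.31 at the high dose, and Csnk1d, a kinase that marks period proteins for degradation, had -0.07 ± 0.06. Neither passed. For the necropsy date Cry2 alone of the 6 passed (edgeR adjusted p = 0.0359), beside 7.16% of all genes.

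Of 14 clock output genes, 10 had an identifier, and 3 passed at the low dose, beside 28.4% of all genes, and 8 at the high dose, beside 72.2%, which is close to the share over all genes at each dose. Wee1, a kinase that holds cells before mitosis, rose by 0.92 ± 0.13 at the low dose and 1.44 ± 0.13 at the high dose, from a median of 3.83 CPM to 6.97 and 9.71 CPM. Id1, an inhibitor of helix-loop-helix factors, rose by 0.73 ± 0.18 and 2.05 ± 0.18. Ppargc1a, a coactivator of gluconeogenesis and mitochondrial genes, rose by 0.75 ± 0.19 at the high dose. Nampt, the enzyme that limits NAD salvage, fell by 1.24 on the log2 scale at the high dose, from a median of 119 CPM (73.9 to 300.1) to 56.0 CPM (33.3 to 80.0). Pfkfb1, an enzyme that sets the pace of glycolysis, fell by 0.41 at the low dose and 0.59 at the high dose. At the high dose the deubiquitinase Usp2 fell by 0.53, the phosphatidate phosphatase Lpin1 by 0.47 and the transcription factor Zfhx3 by 0.32. At the high dose 3 were higher and 5 lower, with a median of -0.23 over the list beside 0.0054 over all genes. For the necropsy date 3 of 10 passed, beside 7.16% of all genes, namely Usp2 (edgeR adjusted p = 0.0605), Cdkn1a (0.000392) and Lpin1 (0.000737).

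Likeness to Dbp and Arntl was read as Pearson's r of group-centred values over 83 liver libraries, among the 1447 genes with a symbol and without a test. Most like Dbp were Per3 (0.82), Hsd17b2 (0.68), Nr1d2 (0.68), Nr1d1 (0.59) and Tns2 (0.56), and most opposite were Arntl (-0.75), Lgalsl (-0.57), Tubb2a (-0.54), Cry1 (-0.51) and Pgam5 (-0.39). Most like Arntl were Lgalsl (0.71), Cry1 (0.54), Dnmt3b (0.51), Cmya5 (0.48) and Dipk2a (0.46). The median absolute r with Dbp was 0.12 over these genes. The points share libraries, depth and necropsy dates.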

How the data were processed

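The authors quantified TruSeq stranded mRNA libraries with Salmon 0.14.0 against rat Ensembl release 100 transcripts and summarised them per gene with tximport, and per the labels R 3.5.0 and DESeq2 were used. They deposited expected counts per gene, rounded to whole numbers and not normalized, with average transcript lengths (bases) as a second, other kind of table. Symbols came from the study's own gene lists, and the necropsy date, litter and ancestry of each male from its animal list. The clock genes and all gene lists were chosen with earlier results of these data known.

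Here genes with a summed count over 10 were tested with edgeR 4.0.16 (R 4.3.3): TMM, quasi-likelihood F test over 12 liver groups sharing 1 spread, Benjamini-Hochberg adjustment over all genes, called at an adjusted p under 0.1. F0 and F1 effects came from the study's additive model on genes with a mean normalized count over 50. Organs were compared with the animal as a term. Log2 CPM used a prior count of 2. Correlations used 100000 permutations within groups. DESeq2 1.42.0, other filters, size factors, length offsets, left-out dates and a block by date were alternatives, with a block by litter for dose alone. All males were separate animals. The fits of some comparisons, none at the high dose, were tested on simulated data. Those data had independent libraries without litters and a spread set by the mean count alone. Depth limits low genes most: in liver, Dbp rested on 45 to 3819 counts per library and Per3 on 31 to 1913.

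Same-numbered males of different groups were not paired by the labels, so the number itself was not used. Males are tied by necropsy date and litter in the study's animal list, and 3 of 5 genes differed between dates in liver.

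Named genes are the 5 clock genes, the preset lists of core clock, clock output and cell type marker genes, and the 5 symbols most like and most opposite to Dbp and Arntl.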

Additional observations from a re-analysis of the deposited data

Results flagged for a closer look

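Among 80 groups of a gene, organ, cohort and dose, 10 had a male that passed Dixon's critical value. That value applies to the gap to the nearest group member as a share of the group's range (log2 CPM). Chance gives about 1 in 20 for a single group, but these groups share males and related genes. The count of 10 is therefore not compared with that rate. All 10 belonged to the 4 males of date 1 that stood apart. In cohort A high-dose male 1, the share was 0.573 for Dbp (10.6 CPM, others 2.42 to 4.57), 0.707 for Per3 (20.2 CPM, others 2.09 to 4.08) and 0.612 for Arntl (16.4 CPM, others 31.7 to 48.1). In cohort C low-dose male 2 it was 0.689 for Dbp (36.0 CPM, others 2.61 to 5.92). In cohort D low-dose male 1 it was 0.596 for Arntl (6.79 CPM, others 22.9 to 52.1). In cohort B vehicle male 2 it was 0.687 for Nr1d1 in liver (70.3 CPM, others 10.9 to 19.6). In the kidney of that male it was 0.618 for Dbp, 0.615 for Nr1d1 (77.5 CPM, others 22.3 to 36.1), 0.658 for Per3 (17.1 CPM, others 7.62 to 10.04) and 0.732 for Arntl.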

How the results depend on the processing

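The number of genes called at the low dose moved from 0 to 1 with DESeq2 (Dbp, adjusted p = 0.0866) and to 2 without date 2 (Dbp, edgeR adjusted p = 0.0548, and Arntl at -0.37, 0.0293). Leaving out each date in turn gave 0 to 2 genes at the low dose, 2 to 3 at the high dose, 2 to 3 for high against low and 2 to 5 of 20 pairs for the high dose within cohorts. Of the other results by dose, interaction, F1, organ and date, the counts stayed within 1.5 times under the alternatives run. Leaving out a date moved the F0 value in liver by more than its SE for 4 of 5 genes, with the direction kept, and not for Arntl. The liver-kidney correlation of Dbp was 0.359 without the 2 farthest males, and 5 gene pairs passed in vehicle liver without the male that stood apart.

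With the necropsy date as a replicate block, Dbp high against low was lost (-0.40, edgeR adjusted p = 0.193) and Per3 was called at the high dose (0.46, 0.0662). With the litter as a replicate block, Dbp high against low was lost (-0.53, edgeR adjusted p = 0.121). The blocks changed no other call of a single gene over the cohorts. In the organ comparison without the animal block, Nr1d1 turned to 0.0496.

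Values near 0 changed sign. Leaving out each date in turn, Dbp at the high dose ran from -0.0166 (without date 2) to 0.135, and it was -0.243 with the litter block. Nr1d2 at the low dose was -0.0103 with a group filter, -0.0111 with no filter, -0.0130 with DESeq2, -0.0131 with DESeq2 size factors, -0.00219 with length offsets, -0.0100 with the date block, -0.0574, -0.0204 and -0.0589 without dates 1, 3 and 4 (0.108 without date 2), -0.0510 without the 4 males, and -0.0262 without the 2 farthest libraries. Per3 high against low ran from -0.418 to 0.186 (without date 1) and was 0.0185 without the 4 males. Arntl ran from -0.212 to 0.0354 (without date 2) for high against low, and from -0.00695 (without date 2) to 0.312 for the high dose by F1. The exclusions of the 4 males and of the 2 farthest libraries were chosen after seeing the data. The cause of these changes was not tested.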
